A study of Capra hircus with 20 samples.

Results

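A total of 94 protein-coding potassium channel genes, those whose symbol starts with KCN, were found among the 21071 genes with expression values, by matching NCBI Gene IDs to the goat annotation (ARS1.2). Of these, 81 had at least 0.1 FPKM in at least 5 of 20 libraries and were tested, and 13 did not. Potassium channels set the resting potential of neurons and glial cells, end the action potential and shape the rhythm of firing. The family holds voltage-gated pore subunits (KCNA, KCNB, KCNC, KCND, KCNH and KCNQ), inward rectifiers (KCNJ), two-pore leak channels (KCNK), calcium- and sodium-activated channels (KCNMA, KCNN and KCNT), silent subunits that pair with other voltage-gated pores (KCNF, KCNG, KCNS and KCNV), and auxiliary subunits (KCNAB, KCNE, KCNIP and KCNMB). In the hypothalamus they tune the excitability of the neurons that release hormones, while inward rectifiers of glial cells take up extracellular potassium.

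The values came from the hypothalamus of 20 female Jining grey goats reared in the same way, and no group was treated. There were 5 goats at each of D1 (1 day after birth), M2 (60 days), M4 (120 days) and M6 (180 days), and 1 strand-specific library per goat, depleted of rRNA. FPKM divides the fragments of each gene by transcript length and library depth, so genes can be compared with one another, and the summed FPKM of all genes was 260199 to 377479 per library. The reads behind each value are unknown, and the spread between the 5 libraries of a stage carries the precision.

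Bulk hypothalamus holds many cell types, and markers of hypothalamus and of other brain regions differed between libraries. At a cutoff of 10 FPKM, 12 of 20 libraries held none of the 5 hypothalamic peptide genes HCRT, PMCH, AVP, OXT and TRH (4 D1, 4 M2, 3 M4 and 1 M6 libraries). In 5 libraries the mean log2 level of cortex, striatum or thalamus markers lay 3 or more above the median of the 20 libraries. They are called region-marked here and were picked after the data were seen. M4-1 held cortex markers (SLC17A7 at 68.0 FPKM), D1-4, M2-4 and M6-2 held striatum markers (PPP1R1B at 226, 48.1 and 102 FPKM), and M4-2 held thalamus markers (TCF7L2 at 86.3 FPKM). M6-3 had the lowest neuron markers, with a summed level of 69.4 FPKM against 178 to 2332 in the other libraries. KLHDC1 took 23.9% of all FPKM in M2-3 and 9.83% in M6-3, and 0.836% to 4.73% in the others.

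The potassium channel genes spanned a wide range of levels. In bulk tissue fewer cells of a type and less RNA per cell cannot be told apart. Mean summed FPKM of the 94 genes, with its SD over 5 libraries, was 507 ± 108 for D1, 485 ± 40.7 for M2, 626 ± 200.3 for M4 and 437 ± 70.9 for M6, and the ranges of the 4 stages overlapped. The highest sums were those of M4-1 (869) and M4-2 (813) and the lowest that of M6-3 (339). A total of 19 genes had a mean of at least 10 FPKM over the 20 libraries, 45 had 1 to 10 and 30 had under 1. The 10 highest genes held 48.2% of the summed FPKM, and 56 genes reached 0.1 FPKM in all 20 libraries.

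**Figure D1:**
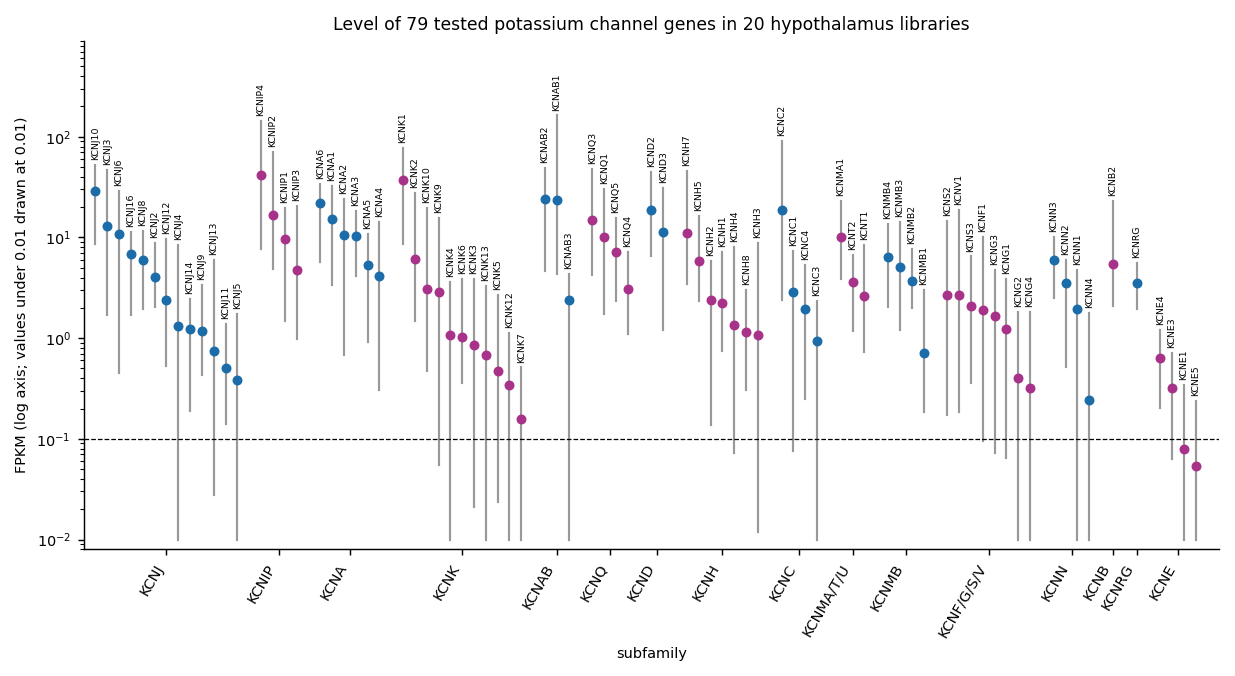
Mean FPKM over the 20 libraries (points) and the lowest to highest library (grey lines) of 79 tested genes, on a log axis and grouped by subfamily in the order of summed FPKM. The dashed line marks 0.1 FPKM. KCNIP4 had the highest mean (41.9) and KCNE5 the lowest (0.0536), and KCNAB1 had the highest single library (163).

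Inward rectifiers made up the largest share, 15.1% of the summed potassium channel FPKM. KCNJ10 encodes Kir4.1, the potassium-uptake channel of astrocytes and oligodendrocytes, and had a mean of 28.8 FPKM with a range of 8.64 to 51.9. KCNJ3 and KCNJ6, pore subunits of G protein-gated channels, followed at 12.99 and 10.9 FPKM. KCNJ16, which joins KCNJ10 in heteromeric channels, was at 6.93, and KCNJ8, the KATP pore known from mural cells, was at 5.94. KCNJ11, the KATP pore of glucose-sensing neurons, was at 0.503 FPKM. KCNJ9, a further G protein-gated subunit whose gene lies 9244 bp from KCNJ10 on chromosome 3, was at 1.18. The remaining tested rectifiers ranged from 4.02 (KCNJ2) down to 0.381 FPKM (KCNJ5).

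Voltage-gated pores of the shaker group (KCNA) held 13.1%. KCNA6 led at 21.8 FPKM, followed by KCNA1 at 15.2, the low-threshold axonal channel, and by KCNA2 (10.7) and KCNA3 (10.3). KCNA5, KCNA1 and KCNA6 lie together on chromosome 5, with 118974 and 62323 bp between them. KCNA6 was placed at chr5:104242836-104279890 and KCNA1 at chr5:104177740-104180513 in ARS1.2. Among the fast-deactivating KCNC channels that allow rapid firing, KCNC2 stood at 18.6 FPKM and the next, KCNC1, at 2.88. The A-type pores KCND2 and KCND3 were at 18.9 and 11.3. The delayed rectifier KCNB2 was at 5.46.

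M-current channels (KCNQ), which damp repetitive firing, held 7.71%. KCNQ3 was at 14.9 FPKM and KCNQ1 at 10.1. An annotated lncRNA gene overlaps KCNQ1, and the reads of the pair may not be fully told apart. In the ether-à-go-go group (KCNH), KCNH7 (11.0) and KCNH5 (5.83) were highest. The silent subunits were lower, with KCNS2 at 2.71 and KCNV1 at 2.69 the highest of 8 tested genes. Among the calcium- and sodium-activated pores, KCNMA1 (the BK channel) was at 10.1, KCNN3 and KCNN2 (SK channels) at 5.95 and 3.497, and KCNT2 and KCNT1 at 3.61 and 2.64 FPKM.

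The leak channels (KCNK) were dominated by a single gene. KCNK1 (TWIK) was at 37.4 FPKM, the second highest of all 94 genes, and the next leak channel, KCNK2 (TREK), was at 6.14. The other 9 tested leak channels were between 0.156 (KCNK7) and 3.09 FPKM (KCNK10). Auxiliary subunits were abundant, with summed means of 73.1 FPKM for KCNIP and 50.4 for KCNAB beside 30.2 for KCND and 67.5 for KCNA. KCNIP4, a calcium sensor that modulates KCND channels, had the highest mean of the family, 41.9 FPKM, and KCNIP2 was at 16.8. The cytoplasmic beta subunits KCNAB2 and KCNAB1, which bind KCNA channels, were at 24.3 and 23.7. The KCNAB1 mean was led by region-marked libraries, with 163 FPKM in D1-4, and its stage medians were 8.28 (M2) to 13.4 FPKM (D1). The KCNAB sum ranged from 11.2 (M6-3) to 179 FPKM (D1-4). BK beta subunits were led by KCNMB4, the neuronal form, at 6.46. KCNE subunits made up 0.257%, with KCNE4 (0.633) and KCNE3 (0.323) the highest. KCNRG, a soluble regulator of KCNA assembly and not a channel, was at 3.55 and varied little, from 1.94 to 5.601 FPKM.

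The question of the design was whether expression differed among the 4 stages after birth. The fit used limma on log2(FPKM + 0.1) for all 16771 genes that passed the filter, with Benjamini-Hochberg adjustment over all of them, and a gene was called where the adjusted p was below 0.05 and the log2 fold change was 1 or more in size. On this scale the fold change of a gene with low FPKM is understated. No potassium channel gene was called in any of the 6 pairwise comparisons, in the mean of the 3 later stages vs. D1 (later stages vs. D1), or in the F test over the 4 stages. Over all genes, 0.0% were called in M2 vs. D1, M4 vs. M2, M6 vs. M4 and M6 vs. M2, 0.0537% were called in M4 vs. D1, 0.00596% for M6 vs. D1, 0.0596% in later stages vs. D1 and 0.00596% in the F test.

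The members that came nearest are described by counts at an unadjusted p below 0.05, beside the share of all genes. M2 vs. D1 gave 5 of 81 members (15.6% of all genes), 5 of them higher (6.25%) and 0 lower (9.35%): the leak channels KCNK10 and KCNK3, KCNT1, KCNQ1 and KCNMB3. M4 vs. M2 gave 7 (8.68%), with 2 higher (3.95%) and 5 lower (4.72%). M4 vs. D1 gave 7 (8.71%), with 3 higher (2.5%) and 4 lower (6.21%). M6 vs. D1 gave 2 (7.41%), 1 higher (3.33%) and 1 lower (4.08%). Later stages vs. D1 gave 4 (11.7%), 2 higher (4.71%) and 2 lower (7.04%), and the F test gave 6 (10.4%). By adjusted p alone, without the fold change, no member passed in later stages vs. D1 either (0.0775% of all genes). In each of these comparisons, both directions together, the share of members was below that of all genes.

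Lower values at M6 were more frequent among members than among all genes, and the counts moved with single libraries. M6 vs. M4 gave 14 members (6.87% of all genes), with 13 lower at M6 (2.88%) and 1 higher (3.99%), and the smallest adjusted p was 0.6996. Among the 13 were KCNIP4, KCNMB4, KCNJ9, KCNA2, KCNAB2, KCNV1, KCNS2, KCNMA1, KCNJ16, KCNJ6, KCNS3 and KCNN2, pores and subunits of several families. M6 vs. M2 gave 8 (6.14%), with 7 lower (2.89%) and 1 higher (3.26%). Without the 5 region-marked libraries 2 members were lower in M6 vs. M4 (1.25% of all genes) and 9 in M6 vs. M2 (3.75%). Without M6-3 these counts were 3 (1.04% of all genes) and 2 (1.84%). In M6 vs. M4 the count was 5 without M4-1 (1.95%) and 7 without M4-2 (1.76%), and with the mapping rate as a covariate it was 14 (4.28%), with 12 in M6 vs. M2 (4.95%).

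The direction of all 81 tested members was counted too. The log2 fold change was above 0 for 40 of 81 members in M2 vs. D1 (44.8% of all genes), 50 in M4 vs. M2 (48.3%), 51 in M4 vs. D1 (43.7%), 40 in later stages vs. D1 (43.1%), 18 in M6 vs. D1 (44.9%), 24 in M6 vs. M4 (53.9%) and 20 in M6 vs. M2 (51.9%). The median over members was -0.41 in M6 vs. M4, against 0.04 over all genes, and it was -0.27 without the region-marked libraries and -0.11 without M6-3. In M6 vs. M2 the median was -0.30, and without the region-marked libraries it was -0.37, with 20 of 79 members above 0 (53.9% of all genes). Without M6-3 the count above 0 became 37 of 81 in M6 vs. M2 (58.1% of all genes), 33 in M6 vs. M4 (57.9%) and 41 in M6 vs. D1 (49.6%). The mapping rate as a covariate moved the comparisons with D1, to 57 above 0 in M2 vs. D1 (54.0% of all genes), 57 in M4 vs. D1 (49.8%), 58 in later stages vs. D1 (53.6%) and 40 in M6 vs. D1 (53.6%), and 11 members were then higher in M4 vs. D1 at an unadjusted p below 0.05 (4.01% of all genes). These comparisons share stages, so their counts repeat the same libraries.

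**Figure D2:**
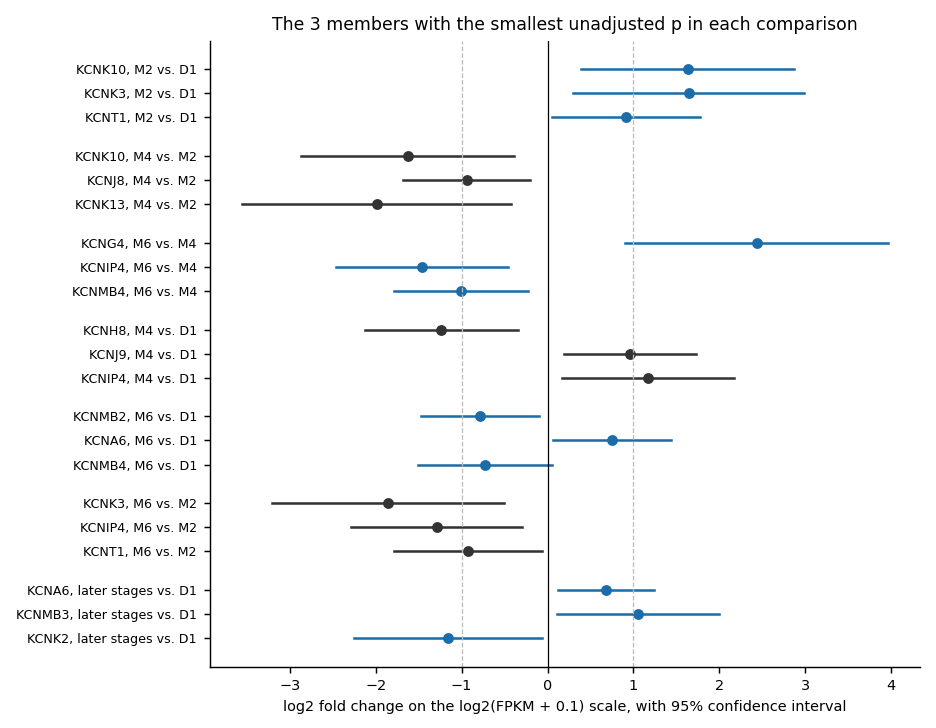
The log2 fold change (points) with its 95% confidence interval (bars) of the 3 members with the smallest unadjusted p in each of the 7 comparisons, from the limma fit of 20 libraries. Dashed lines mark a log2 fold change of 1 in each direction. KCNG4 in M6 vs. M4 lay farthest from 0, at 2.43, and no adjusted p was under 0.05.

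KCNIP4, the calcium sensor of KCND channels, had the smallest p of the members in the F test over the stages (limma adjusted p = 0.401). Its values were 33.7, 33.5, 33.8, 12.1 and 17.3 FPKM in the D1 libraries, 50.1, 55.8, 36.5, 60.9 and 41.3 in the M2 libraries, 108, 142, 47.9, 30.6 and 20.7 in the M4 libraries, and 19.8, 18.2, 7.63, 43.8 and 23.9 in the M6 libraries. All 5 M2 libraries lay above all 5 D1 libraries, while M4 spanned both, with M4-1 and M4-2 the highest. The fitted log2 fold change was 1.00 (95% confidence interval -0.00021 to 1.99, adjusted p = 0.3201) for M2 vs. D1 and -1.46 (95% confidence interval -2.46 to -0.46, adjusted p = 0.6996) in M6 vs. M4. KCNA1 was the other member whose groups did not overlap in M2 vs. D1 (2 members, against 3.82% of all genes). Its values were 13.7, 18.5, 22.98, 16.1 and 19.5 FPKM in the D1 libraries, 6.44, 9.95, 13.5, 11.9 and 12.3 in the M2 libraries, 7.01, 4.55, 32.4, 21.9 and 14.9 in the M4 libraries, and 19.6, 21.9, 18.3, 3.34 and 15.5 in the M6 libraries, so every M2 library lay below every D1 library, and the M2 vs. D1 log2 fold change was -0.76 (95% confidence interval -1.77 to 0.25, adjusted p = 0.4496).

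KCNA6, a voltage-gated pore of the shaker group, had the smallest unadjusted p of the members in later stages vs. D1. Its values were 19.9, 15.4, 18.96, 5.77 and 17.4 FPKM in the D1 libraries, 22.1, 26.0, 23.3, 17.7 and 22.6 in the M2 libraries, 13.4, 13.5, 34.3, 31.3 and 29.1 in the M4 libraries, and 29.4, 21.2, 27.3, 15.02 and 31.9 in the M6 libraries. M4-1, M4-2, M6-4 and M2-4 lay within the D1 range, the other 11 later libraries lay above it, and D1-4 lay below all other libraries. The log2 fold change was 0.68 (95% confidence interval 0.12 to 1.24, adjusted p = 0.335), and 0.75 (95% confidence interval 0.07 to 1.44, adjusted p = 0.638) in M6 vs. D1. Without D1-4 these were 0.36 and 0.43. KCNMB3, a BK beta subunit, had 1.76, 4.61, 2.21, 1.202 and 2.69 FPKM in the D1 libraries, 14.4, 5.03, 5.46, 1.67 and 5.904 in the M2 libraries, 2.41, 6.71, 13.9, 7.83 and 2.76 in the M4 libraries, and 1.31, 3.94, 8.72, 3.98 and 4.403 in the M6 libraries, with a log2 fold change of 1.05 (95% confidence interval 0.11 to 1.99, adjusted p = 0.375) in later stages vs. D1 and 0.069 with the mapping rate as a covariate. Its annotation shares 21207 bp with PIK3CA, which had a mean of 30.4 FPKM, so the level of KCNMB3 is uncertain. KCNK2 had -1.16 (95% confidence interval -2.25 to -0.07, adjusted p = 0.4004), and its D1 values of 9.69, 2.82, 3.62, 27.9 and 11.5 FPKM were led by the region-marked D1-4.

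Two-pore leak channels gave the smallest p values in M2 vs. D1. KCNK10 (TREK-2) had 1.81, 1.97, 1.11, 1.44 and 0.888 FPKM in the D1 libraries, 19.4, 1.75, 8.404, 2.65 and 2.38 in the M2 libraries, 2.34, 2.29, 1.95, 0.472 and 0.993 in the M4 libraries, and 1.11, 1.01, 4.07, 4.40 and 1.35 in the M6 libraries, and the mean at M2 rested on M2-1 and M2-3. The fitted difference was 1.63 (95% confidence interval 0.40 to 2.87, adjusted p = 0.218) on the log2 scale for M2 vs. D1 and -1.63 for M4 vs. M2 (adjusted p = 0.509), and with the mapping rate as a covariate the former was 0.64. KCNK3, an acid-sensitive leak channel, had 1.03, 0.197, 0.365, 0.5698 and 0.152 FPKM in the D1 libraries, 1.76, 0.410, 3.84, 2.07 and 0.8598 in the M2 libraries, 0.877, 0.968, 1.24, 0.194 and 0.259 in the M4 libraries, and 0.161, 0.389, 0.0211, 0.801 and 0.792 in the M6 libraries. It was highest in M2-3, and the groups overlapped in M2 vs. D1 with 1.64 (95% confidence interval 0.29 to 2.99, adjusted p = 0.245) and in M6 vs. M2 with -1.86 (95% confidence interval -3.21 to -0.51, adjusted p = 0.746). KCNK13, a leak channel known from microglia, was at 1.03, 1.01, 3.29, 1.74 and 0.175 FPKM at M2 and 0, 0.3995, 0.491, 0.2097 and 0.139 at M4, a log2 fold change of -1.99 (95% confidence interval -3.56 to -0.42, adjusted p = 0.509), which was -0.86 with a pseudocount of 1. The sodium-activated KCNT1 had a mean ± SD over 5 libraries of 2.07 ± 0.743 FPKM for D1, 4.21 ± 2.45 for M2, 2.06 ± 0.789 for M4 and 2.22 ± 1.13 for M6, and M2-1 alone was at 8.44. The M2 vs. D1 difference was 0.91 on the log2 scale (limma adjusted p = 0.293), and the M6 vs. M2 difference was -0.92 (limma adjusted p = 0.746).

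**Figure D3:**
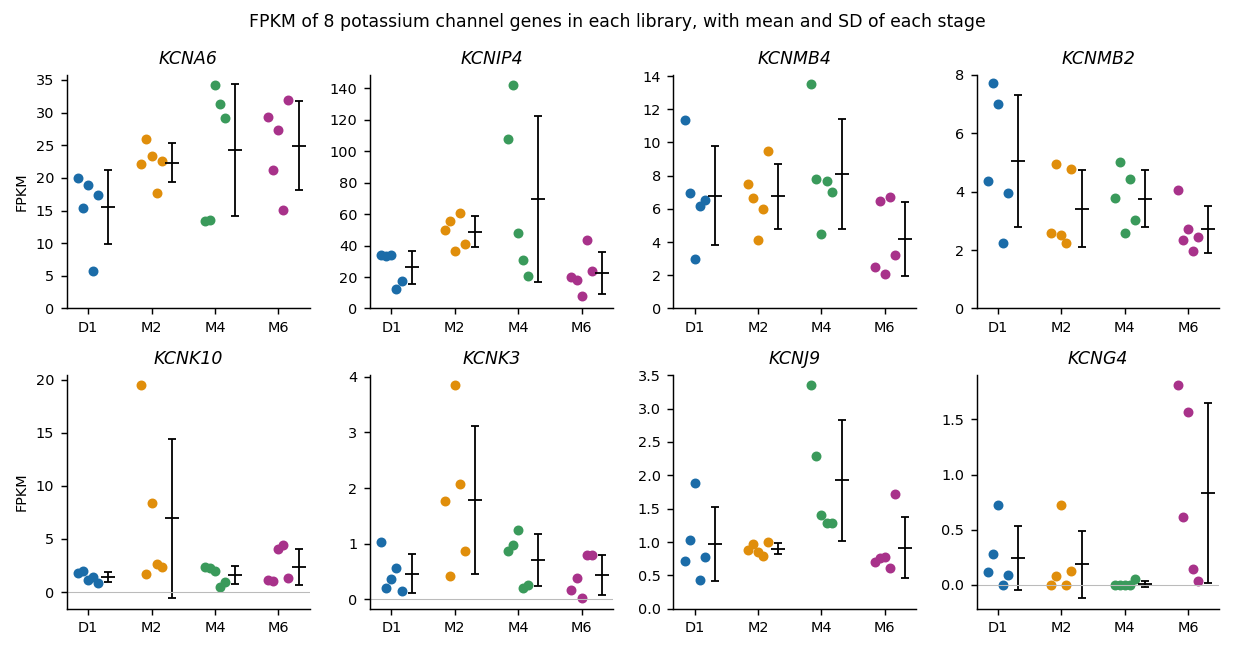
FPKM of 8 members that the comparisons name, with 1 point per library and the mean ± SD of the 5 libraries of each stage in black. KCNA6 at D1 lay between 5.77 and 19.9 FPKM, and the stages overlapped for every gene shown except KCNIP4 in M2 vs. D1 and KCNJ9 in M4 vs. M2.

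Inward rectifiers gave the non-overlapping pairs in M4 vs. M2 (2 members, against 1.09% of all genes). KCNJ9 was at 0.887, 0.967, 0.853, 0.796 and 1.003 FPKM at M2 and 3.36, 2.28, 1.41, 1.29 and 1.28 at M4, with D1 at 0.715, 1.03, 1.89, 0.427 and 0.779 and M6 at 0.698, 0.764, 0.7695, 0.611 and 1.73. Its log2 fold change was 0.92 (95% confidence interval 0.15 to 1.68, adjusted p = 0.535) in M4 vs. M2 and 0.96 (95% confidence interval 0.20 to 1.73, adjusted p = 0.473) in M4 vs. D1. KCNJ11 was at 0.215, 0.216, 0.139, 0.505 and 0.458 FPKM at M2 and 1.39, 0.654, 0.653, 0.517 and 0.542 at M4, with a log2 fold change of 1.08 (95% confidence interval 0.12 to 2.03, adjusted p = 0.551). For both genes the highest M4 library was M4-1. KCNJ8 was at 7.32 ± 1.46 FPKM at M2 and 4.04 ± 1.799 at M4, with a log2 fold change of -0.94 (95% confidence interval -1.68 to -0.21, adjusted p = 0.509), and its sulphonylurea receptor partner ABCC9 had a mean of 4.78 FPKM over all libraries. No member was free of overlap in M6 vs. M4 (0.775% of all genes), M4 vs. D1 (1.93%), M6 vs. D1 (2.84%), M6 vs. M2 (0.757%) or later stages vs. D1 (0.143%).

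The BK beta subunits KCNMB4 and KCNMB2 had their lowest mean at M6. KCNMB4 had 11.3, 6.93, 2.999, 6.16 and 6.51 FPKM in the D1 libraries, 7.49, 6.63, 4.14, 6.02 and 9.48 in the M2 libraries, 13.5, 7.83, 4.48, 7.69 and 7.01 in the M4 libraries, and 2.48, 6.48, 2.05, 6.69 and 3.199 in the M6 libraries, and M6 overlapped each other stage. The log2 fold change was -1.01 (95% confidence interval -1.79 to -0.23, adjusted p = 0.6996) in M6 vs. M4 and -0.73 (95% confidence interval -1.51 to 0.05, adjusted p = 0.703) in M6 vs. D1. KCNMB2 averaged 5.05 ± 2.27 FPKM (SD, n = 5) for D1 and 2.71 ± 0.803 for M6, a fitted log2 difference of -0.79 (95% confidence interval -1.47 to -0.10, adjusted p = 0.633). KCNMA1, the pore they join, was at 8.801 ± 1.34, 10.1 ± 1.99, 13.2 ± 6.22 and 8.14 ± 2.902 FPKM in the 4 stages. KCNH8, of the ether-à-go-go group, had 1.63 ± 0.762 FPKM at D1 and 0.623 ± 0.301 at M4, with -1.23 (95% confidence interval -2.13 to -0.34, adjusted p = 0.424) in M4 vs. D1. The silent subunit KCNG4 was near the filter. It was at 0, 0, 0, 0 and 0.0565 FPKM at M4 and 1.81, 0.616, 1.56, 0.142 and 0.0315 at M6, so 4 of 5 M4 libraries were listed at 0, and the fitted M6 vs. M4 value of 2.43 (adjusted p = 0.6996) depends on the pseudocount of 0.1 FPKM, falling to 0.74 with a pseudocount of 1.

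The spread within a stage was wider for the potassium channel genes than for most genes. The median within-stage SD on the log2 scale was 0.94 over the 81 members and 0.57 over all genes tested, and 18 members exceeded the 90th percentile of all genes. This comparison was not matched for level, and the median of mean FPKM was 3.06 over the 81 members and 5.04 over all genes tested. The members that varied most included KCNJ4, KCNH3, KCNF1, KCNK9, KCNG3, KCNJ6, KCNG1, KCNAB1 and KCNH4. Much of this lay in single libraries. KCNAB1 was at 163 FPKM in D1-4, 37.4 in M2-4 and 75.3 in M6-2, the libraries with striatum markers, while the next highest of the same stages were at 14.3, 9.004 and 10.1. It was also at 44.6 in M4-1 and 26.9 in M4-2. KCNIP2 was at 71.2, 33.1 and 33.03 FPKM in the same libraries and at 38.2 in M4-1, and at most 14.9 in all others. KCNK2 was highest in the same 3 libraries with striatum markers, at 27.9 FPKM in D1-4, 13.4 in M6-2 and 11.464 in M2-4, with D1-5 next at 11.458.

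The library with cortex markers, M4-1, held the highest KCNH7 (45.7 FPKM, next 15.3), KCNV1 (18.8, next 5.88), KCNIP3 (20.5, next 10.2) and KCNH3 (8.77, next 3.43). M4-2, with thalamus markers, held the highest KCNC2 (89.96), KCNIP4 (142), KCNQ3 (47.9), KCND2 (44.3), KCNB2 (23.3) and KCNS2 (14.6 FPKM). KCNJ4 shows the pattern in full. It was at 8.37, 7.28, 4.67 and 3.38 FPKM in the striatum- and cortex-marked libraries and at most 0.718 in the other 16. D1-3 held the highest D1 values of KCNJ3 (35.5), KCNH5 (16.5), KCNS2 (8.41), KCNC1 (7.34) and KCNC2 (31.98 FPKM). D1-3 lay under the cutoff for region-marked libraries. Of its thalamus markers, TCF7L2 was at 32.6 FPKM, exceeded only in M4-2, and LHX9 and GBX2 were at 1.53 and 0.349. M6-3, the library with the lowest neuron markers, was the lowest of all 20 for KCNC1 (0.07602), KCNIP4 (7.63), KCNAB2 (4.61), KCNA2 (0.683) and KCNC2 (2.41), yet the highest for KCNK1 (78.1 FPKM). These libraries and genes were picked after their values were seen, and the part of the regional markers in the stage values was not tested.

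**Figure D4:**
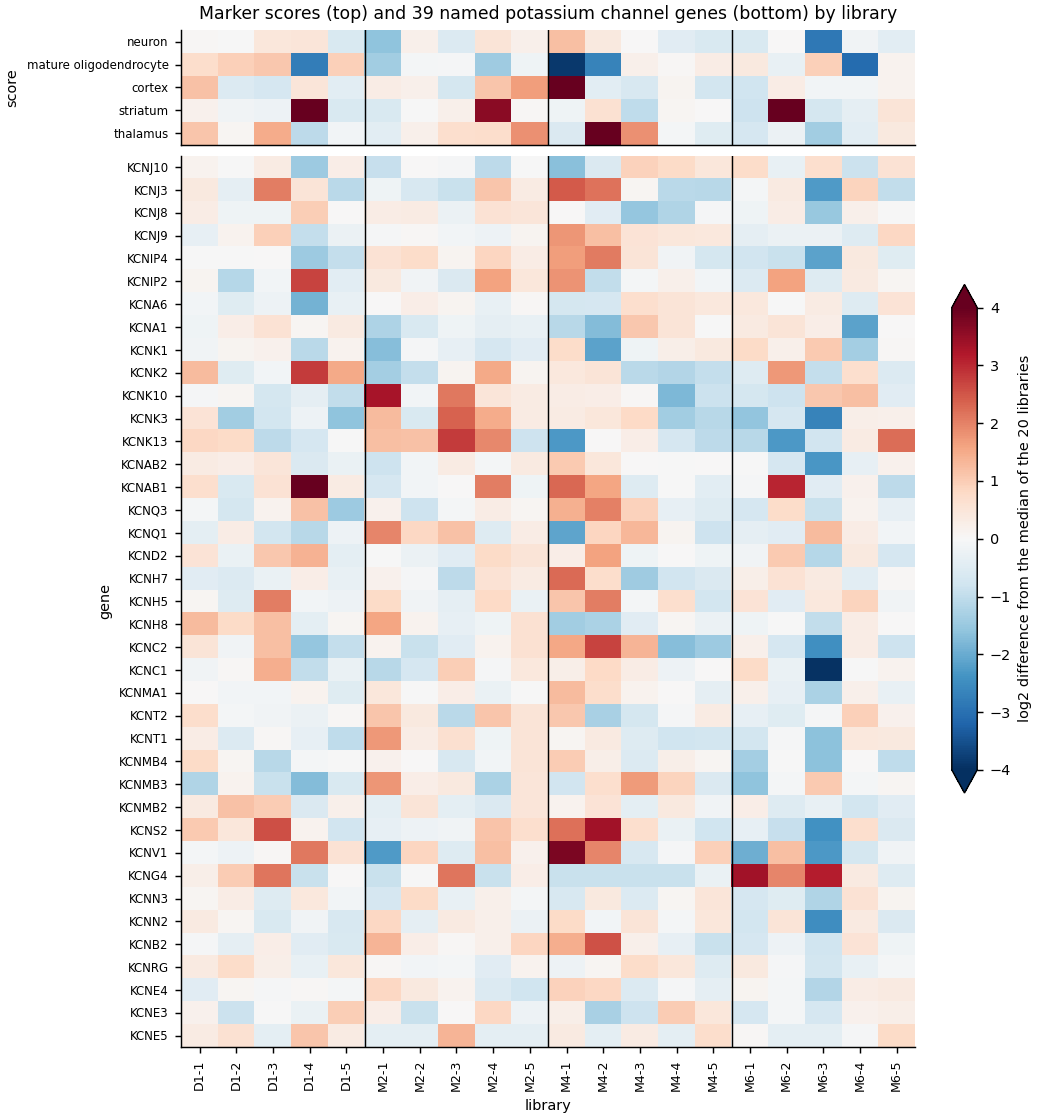
Marker scores (top) and 39 named members (bottom) in the 20 libraries, as log2 differences from the median of each row over the libraries, where red is higher and blue is lower, and black lines separate the stages. D1-4, M2-4 and M6-2 stand out in the striatum score and in KCNAB1 and KCNIP2, M4-1 in the cortex score and KCNV1, M4-2 in the thalamus score and KCNC2, and M6-3 is low in the neuron score and in KCNC1.

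Marker genes gave a score per library for each cell type, the mean log2(FPKM + 0.1) of a fixed list, and the log2 level of every gene was fitted on each score with the stages in the model, over the 20 libraries and with adjustment over all genes. This fit was added after the data were seen. A slope on a score does not place a channel in a cell. With the mature oligodendrocyte score (with MOG, MAG, MOBP and CNP among its markers), 5 members had a positive slope, against 6.6% of all genes, and 22 had a negative slope, against 7.54%. With the neuron score (SNAP25, SYT1, RBFOX3, ENO2 and NEFL), 15 were positive, against 7.21%, and 1 was negative, against 1.93%. The astrocyte score gave 7, the oligodendrocyte progenitor score 11 and the microglia score 3 members, where 2.37%, 12.8% and 3.38% of all genes were called. None of these members remained past the threshold without the region-marked libraries, where almost no gene passed (0%, 0.00606% and 0% of all genes). The endothelial and mural scores gave 0 (1.51% and 0.0119% of all genes).

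The 5 members positive with the mature oligodendrocyte score were KCNJ10, KCNA6, KCNJ14, KCNA1 and KCNK1. Over all 20 libraries, KCNJ10 and KCNA6 were also positive with the astrocyte score (1.49 and 0.96, against 1.64% of all genes). The same 2 were positive with the oligodendrocyte progenitor score (1.35 and 0.94, against 5.21%), so their slopes are not particular to 1 glial score. KCNJ10, the glial Kir4.1 channel, had a slope of 0.49 (0.40 to 0.58, adjusted p = 1.25e-07) log2 units per unit of the score, where the parentheses give the 95% confidence interval and the limma adjusted p. Its values were 30.2, 27.04, 34.8, 9.91 and 33.02 FPKM in the D1 libraries, 14.5, 28.1, 26.7, 13.2 and 26.99 in the M2 libraries, 8.64, 18.3, 51.9, 47.3 and 37.8 in the M4 libraries, and 45.8, 22.4, 44.1, 15.1 and 40.9 in the M6 libraries, and its 6 lowest libraries (M4-1, D1-4, M2-4, M2-1, M6-4 and M4-2) were also the 6 with the lowest score. The slopes were 0.33 (0.25 to 0.42, adjusted p = 5.99e-06) for KCNA6, 0.49 (0.29 to 0.70, adjusted p = 0.00196) for KCNJ14, 0.41 (0.23 to 0.59, adjusted p = 0.00318) for KCNA1 and 0.33 (0.12 to 0.54, adjusted p = 0.0355) for KCNK1. M4-1 departed from the others for KCNK1, with 62.8 FPKM at the lowest score of all. Without the 5 region-marked libraries KCNJ10 (0.44, adjusted p = 0.00296), KCNA1 (0.65, adjusted p = 0.00165) and KCNK1 (0.63, adjusted p = 0.000832) remained of all 27, where 2.66% of all genes were called, and KCNA6 had 0.23 (adjusted p = 0.0950).

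The 22 members with a negative slope on the oligodendrocyte score included pores, silent subunits and auxiliary subunits. The steepest were KCNJ4 (-1.12), KCNH3 (-0.87), KCNF1 (-0.81), KCNH4 (-0.64) and KCNAB1 (-0.63), each of which had its highest value in D1-4 or M4-1. KCNQ3 and KCNQ5 had -0.39 and -0.32, and KCNIP1, KCNIP2 and KCNIP3 had -0.34, -0.43 and -0.37. None of the 22 had an adjusted p under 0.05 without the region-marked libraries, where 0.891% of all genes had a negative slope past the threshold.

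On the neuron score the positive members were voltage-gated pores, silent subunits, auxiliary subunits and 1 inward rectifier. The shaker-group pore KCNA3 had a slope of 0.54 (0.31 to 0.76, adjusted p = 0.00398), KCNA4 1.06 (adjusted p = 0.00354) and the beta subunit KCNAB2 0.59 (0.33 to 0.84, adjusted p = 0.00558). Others were KCNIP1 (0.75), KCNJ3 (1.13), KCNV1 (1.24), KCNA2 (0.81), KCNS2 (1.01), KCNF1 (1.46), KCNC1 (0.89), KCND2 (0.55), KCNIP4 (0.61) and KCNG2 (0.95). KCNQ1 was the member with a negative slope (-0.71). A total of 10 members were past the threshold without the region-marked libraries (3.73% of all genes), among them KCNA3 (0.56), KCNA4 (0.83) and KCNAB2 (0.75). M6-3 and M2-1 had the lowest scores and weighed on single slopes. Leaving out 1 library moved the slope of KCNC1 to as low as 0.26 and that of KCNA2 to 0.35, and the count of both signs, which was 16 over all libraries (9.13% of all genes), to 9 without M6-3 (8.88%) and 27 without M2-1 (11.9%).

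**Figure D5:**
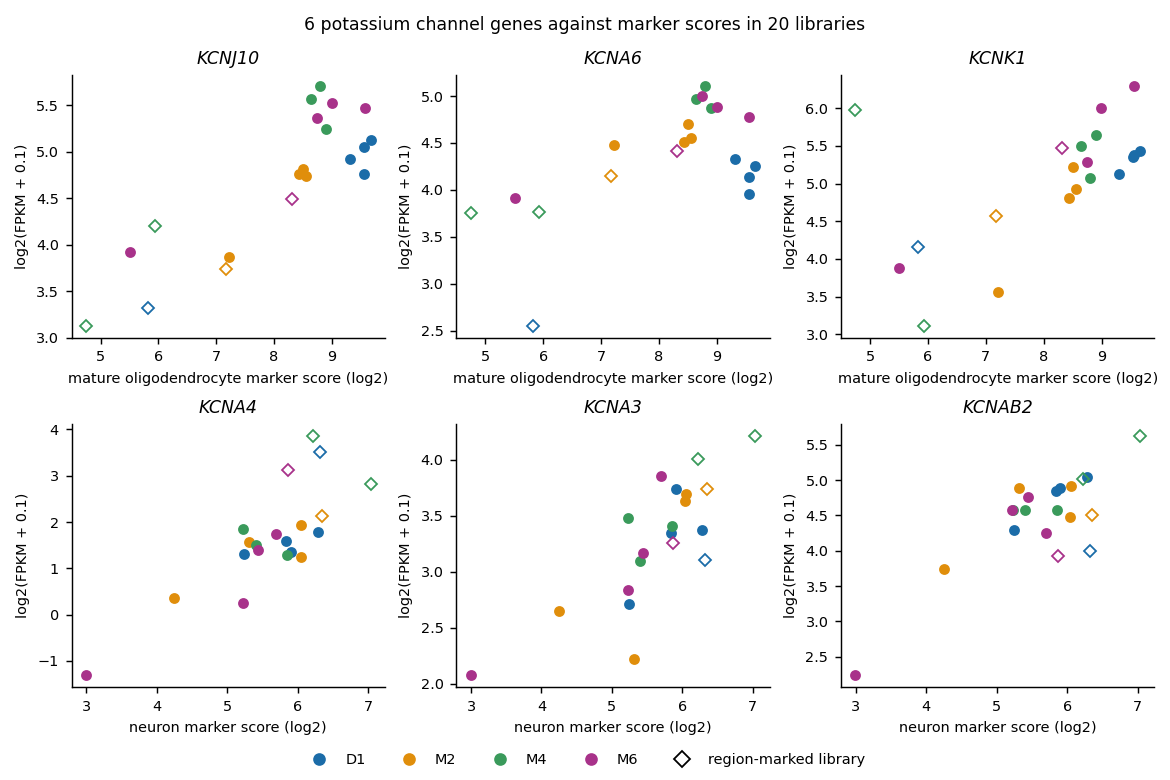
log2(FPKM + 0.1) of KCNJ10, KCNA6 and KCNK1 against the mature oligodendrocyte score and of KCNA4, KCNA3 and KCNAB2 against the neuron score, with 1 point per library coloured by stage and open diamonds for the 5 region-marked libraries. Points rise to the right in each panel, with slopes of 0.33 to 1.06, and in the KCNA6 panel the 5 D1 libraries lay below later libraries of like score.

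The oligodendrocyte score itself overlapped between stages, at 8.78 ± 1.66 (SD, n = 5) for D1, 7.98 ± 0.717 for M2, 7.41 ± 1.93 for M4 and 8.22 ± 1.59 for M6. With the score as a covariate, a fit added after the data were seen, KCNA6 was the only member with an adjusted p under 0.05 in later stages vs. D1, where 1.47% of all genes passed. The later stages were higher by 0.98 (95% confidence interval 0.71 to 1.26, adjusted p = 0.000693) on the log2 scale. By adjusted p alone, each later stage passed against D1, with 0.90 (95% confidence interval 0.57 to 1.23, adjusted p = 0.0364) for M2 (0.167% of all genes), 1.11 (95% confidence interval 0.76 to 1.45, adjusted p = 0.00455) for M4 (0.62%) and 0.94 (95% confidence interval 0.61 to 1.27, adjusted p = 0.00475) for M6 (0.757%). With the log2 fold change of at least 1 also required, KCNA6 was called in M4 vs. D1 only (0.507% of all genes). No member was then called in M2 vs. D1 (0.125%), M6 vs. D1 (0.602%) or later stages vs. D1 (0.853%). The later stages differed from each other by 0.21 in M4 vs. M2 (interval -0.12 to 0.53) and -0.17 in M6 vs. M4 (-0.50 to 0.16).

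The same order can be read from single libraries. Among those with a score under 6, KCNA6 was at 5.77 FPKM in D1-4 and at 13.4, 13.5 and 15.02 in M4-1, M4-2 and M6-4. At scores above 9, it was at 19.9, 15.4, 18.96 and 17.4 in the other 4 D1 libraries and at 27.3 in M6-3. D1-4, M4-1 and M4-2 were region-marked, and M6-3 was the library with the lowest neuron markers. In these few libraries stage cannot be told apart from region or cell content. The value for later stages vs. D1 was 0.84 to 1.06 when each library was left out in turn (adjusted p of at most 0.0116), 0.82 without the 5 region-marked libraries (adjusted p = 0.0354) and 0.96 to 1.02 when each marker was dropped from the score. The single stages were less stable. Without the region-marked libraries M4 vs. D1 passed (0.98, adjusted p = 0.0389), but M6 vs. D1 had 0.78 (adjusted p = 0.106) and M2 vs. D1 0.70 (adjusted p = 0.220). The adjusted p of M2 vs. D1 was also up to 0.0799 when 1 library was left out and up to 0.0548 when 1 marker was dropped. The model assumes 1 slope at all stages, and an annotated lncRNA gene shares 2724 bp with KCNA6. KCNJ10 had 0.81 (95% confidence interval 0.43 to 1.19, adjusted p = 0.0487) in M4 vs. D1 under the same model and 0.51 (95% confidence interval 0.21 to 0.82, adjusted p = 0.0886) in later stages vs. D1, and the M4 vs. D1 adjusted p was 0.0913 without the region-marked libraries and up to 0.219 when 1 library was left out. KCNA1, the neighbour of KCNA6, had -0.19 (95% confidence interval -0.78 to 0.41, adjusted p = 0.756).

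Genes that work with potassium channels were read from a separate list of 28, of which 25 were tested. None passed an adjusted p of 0.05 in the limma fit of the 7 comparisons, and 3 were at an unadjusted p under 0.05 in later stages vs. D1 (11.7% of all genes). CNTN2, which gathers KCNA channels beside the nodes of myelinated axons, had a slope of 0.51 on the oligodendrocyte score (limma adjusted p = 7.41e-06), and ATP1B3 had 0.43 and CNTN1 0.22, the 3 positive slopes of the list (6.6% of all genes). On the neuron score 7 were positive (7.21%) and 0 negative (1.93%), with ADAM22 at 0.63, AMIGO1 at 0.95 and ATP1B1 at 0.82. The KCND partners DPP6 and DPP10 had means of 41.5 and 27.3 FPKM, beside 41.9 for KCNIP4. The sulphonylurea receptor ABCC8 was at 2.11 FPKM. The BK gamma subunits LRRC26 and LRRC52 were under the filter.

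The 13 members under the filter were KCNA7, KCNA10, KCNE2, KCNV2, KCNS1, KCNH6, KCNJ15, KCNJ1, KCNK15, KCNK16, KCNK17, KCNK18 and KCNU1, and KCNK18 was listed at 0 in all 20 libraries. KCNE2, a subunit known from the choroid plexus, lay just outside the filter with 4 libraries at 0.1 FPKM or more, of which M2-1 was highest at 2.97 FPKM. KCNE5 lay just inside with 5 libraries and a highest value of 0.235. KCNJ13, another choroid plexus channel, passed the filter, with 5.96 FPKM in D1-5 and 2.31 in M4-1 and at most 1.07 elsewhere. It lies wholly within GIGYF2 (10.1 FPKM), and its level is uncertain for that reason. In all, 16 of the 94 members overlapped another annotated gene and 6 of these a protein-coding one.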

How the data were processed

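Hypothalamic RNA of 20 female goats was sequenced with strand-specific, rRNA-depleted libraries, 1 per goat. Per the study's methods, the authors trimmed reads, aligned them to the goat genome with HISAT2 2.0.5 and assembled and quantified transcripts with StringTie 1.3.3b, and deposited 1 FPKM value per gene and library. FPKM keeps no read counts, so no count model was used and the depth behind a value is unknown. NCBI Gene IDs were matched to symbols and positions in ARS1.2 (20610 of 21071 rows). The fit kept genes that reached 0.1 FPKM in 5 or more libraries. Then log2(FPKM + 0.1) was fitted with limma 3.58.1 (R 4.3.3, lmFit and eBayes with a trend) on the 4 stages together, and p-values were adjusted by Benjamini-Hochberg over all 16771 genes. All p-values are two-sided. The method was tested on simulated data. Named were the highest tested members of each subfamily, the 3 members with the smallest p in each of the 7 comparisons, and the members on either side of the filter; other members were named after their values were seen. The members and gene lists were chosen with earlier results of these data known. A few genes are not reported here by name, though counts and sums include them. Alternatives changed the pseudocount, filter, scaling, weights, covariates, threshold and libraries. Goats are separate animals, so the spread is biological and technical together.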

Additional observations from a re-analysis of the deposited data

Results flagged for a closer look

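In groups of 5 libraries, the gap of a library to its nearest other value was divided by the range of the group. A library was marked where this ratio exceeded Dixon's 95% critical value of 0.71. Of 160 groups (40 members at 4 stages) 26 were marked (16.25%), against 13.4% of the groups of all tested genes. The 40 include KCNE2, which was under the filter and was marked at all 4 stages, so the 2 shares are not fully alike. Chance marks about 1 in 20 where values are normally distributed, which was not tested for FPKM. The 40 were chosen by their level in their subfamily, their p or their place at the filter, and a single high library can move each of these. Each marked library was the highest of its stage. KCNAB1 was marked in 3 libraries, at 163 FPKM in D1-4, 37.4 in M2-4 and 75.3 in M6-2. KCNIP2 was marked at 71.2 FPKM in D1-4, 38.2 in M4-1 and 33.0 in M6-2. KCNV1 was marked at 5.88 FPKM in D1-4 and 18.8 in M4-1, KCNH7 at 45.7 in M4-1, KCND2 at 44.3 in M4-2 and KCNK2 at 11.5 in M2-4. These are libraries with striatum, cortex or thalamus markers, and the part of those markers was not tested.

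In D1-3, 4 members were marked: KCNJ3 at 35.5 FPKM, KCNH5 at 16.5, KCNS2 at 8.41 and KCNC1 at 7.34. KCNT1 was marked at 8.44 FPKM in M2-1, KCNT2 at 4.94 in D1-1, KCNJ9 at 1.73 in M6-5 and KCNK13 at 2.18 in M6-5. Members near the filter were marked at low levels. KCNE2 was marked at 0.0828 FPKM in D1-5, 2.97 in M2-1, 0.442 in M4-5 and 0.772 in M6-3, KCNE5 at 0.235 in M2-3, and KCNG4 at 0.726 in M2-3 and 0.0565 in M4-5. For KCNE2 at D1 and M4, KCNE5 at M2 and KCNG4 at M4 all other libraries of the stage were listed at 0. Any value above 0 would have been marked there.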

How the results depend on the processing

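The absence of calls among the potassium channel genes was repeated with a pseudocount of 1, no filter, quantile and median-ratio scaling, library weights, the mapping rate as a covariate, adjusted p alone, and each library left out in turn (0 to 0 called in each of the 7 comparisons and the F test). With the replicate block, 0 were called in each comparison, but the goats share only a number: over 30 same-numbered pairs the median correlation of deviations from stage means was -0.011, and 3 of 20 libraries correlated best with their own number. Of alternatives added after the data were seen, the oligodendrocyte score as a covariate gave 1 called member, KCNA6, in M4 vs. D1 (0.507% of all genes). It also gave 1 in the F test, for which the share over all genes was not counted. The 25 fold changes followed were of the 3 members with the smallest p in each comparison and the members whose groups did not overlap. None changed sign under any of the alternatives above. They were picked by these traits from the same libraries, so a kept sign says little about stability. Of the 25, 19 moved by over 1.5 times in at least 1 alternative. These were 8 with a pseudocount of 1, 6 each with library weights and the mapping rate, 5 without the region-marked libraries, 3 without D1-4, and 1 each without M6-3 and with the oligodendrocyte score. KCNMB3 in later stages vs. D1 ranged from 0.069 to 1.299, KCNIP4 in M4 vs. D1 from 0.13 to 1.62 and KCNG4 in M6 vs. M4 from 0.74 to 2.98. The slope counts depended more on the libraries. On the neuron score 10 members passed without the 5 region-marked libraries (3.73% of all genes), and 9 to 27 when each library was left out (8.88% without M6-3 and 11.9% without M2-1). On the mature oligodendrocyte score 3 passed without the region-marked libraries (2.66% of all genes), 15 without the 2 libraries farthest from the median score (8.03%), and 12 to 25 when each library was left out, lowest without M4-1 (9.74%) and next 15 without D1-4 (9.44%). The causes were not tested. FPKM gives no depth, so a value listed at 0 sets no upper limit.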
